A study of Homo sapiens with 6 samples.

Results

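WDR5 and the genes that form the core of the COMPASS family of histone methyltransferases were examined in BT-549 cells, a human triple-negative breast cancer line. The 10 genes were taken by symbol from 19792 genes in the table. They comprise WDR5, its core partners RBBP5, ASH2L and DPY30, and the 6 H3K4 methyltransferases SETD1A, SETD1B, KMT2A, KMT2B, KMT2C and KMT2D. All 10 were found, each has a normalized count of 10 or more on average, and each has an adjusted p-value.

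COMPASS complexes place methyl groups on lysine 4 of histone H3 (H3K4), a mark of promoters and enhancers of active genes. Each complex is built around a methyltransferase with a SET domain and shares the core subunits WDR5, RBBP5, ASH2L and DPY30 (together WRAD). The paper describes SETD1A and SETD1B as dependent on WRAD for their activity. SETD1A and SETD1B are known for bulk H3K4 trimethylation, KMT2A and KMT2B for trimethylation at selected promoters, and KMT2C and KMT2D for monomethylation at enhancers.

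BT-549 cells carried a puromycin-selected WDR5 shRNA, a single hairpin under a doxycycline-inducible promoter. The mRNA of 3 cultures given 0.1% DMSO as vehicle was sequenced beside that of 3 cultures given 500 ng/ml doxycycline (DOX) for 7 days. Both groups carried the hairpin. Silencing of WDR5, an effect of DOX itself and an off-target effect of the induced hairpin thus cannot be told apart in this comparison. Whether the DOX cultures also held DMSO is not given. For each gene the deposited table holds the normalized count averaged over 6 libraries, and the log2 fold change (DOX over vehicle) with a standard error. It holds no value of a single library. The depth of each library is therefore unknown, and how far cultures of a group lie apart enters through the standard errors. The mesenchymal genes VIM, CDH2 and FN1 had mean normalized counts of 47782, 4093 and 30461, whereas the epithelial marker EPCAM stood at 1.30 and CDH1 at 59.6. KRT8 and KRT18 had mean normalized counts of 57.3 and 435. ESR1 and PGR, the hormone receptor genes that triple-negative tumors lack, stood at 0.79 and 0.80, and ERBB2 at 1221.

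Reference promoter sequence was available for 7 of the 10 genes in RefSeq windows of 300 bases on GRCh38.p14, and ASH2L, DPY30 and SETD1B had no entry. Stretches before the first exon of the canonical transcript, free of annotated exons of the gene, are given for WDR5, RBBP5 and KMT2D as examples. The GC content of their windows was 64% for WDR5, 65% for KMT2D and 49.3% for RBBP5. The stretch of RBBP5 ends 38 bases before the canonical start. That of WDR5 lies inside the annotated gene, in an intron of other WDR5 transcripts that start further upstream. They comprise WDR5 at chr9:134135843-134136081 on the plus strand, RBBP5 at chr1:205122016-205122228 on the minus strand and KMT2D at chr12:49060795-49061044 on the minus strand. Capitals mark GC boxes (GGGCGG), the E-box (CACGTG) and the NRF1 motif, which stands near the end of the WDR5 stretch. All were read on both strands and with overlaps allowed.
WDR5: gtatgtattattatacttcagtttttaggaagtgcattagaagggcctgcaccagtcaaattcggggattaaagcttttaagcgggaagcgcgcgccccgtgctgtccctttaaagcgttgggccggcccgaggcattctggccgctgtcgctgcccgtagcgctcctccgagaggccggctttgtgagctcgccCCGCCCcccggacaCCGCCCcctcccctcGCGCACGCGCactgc
RBBP5: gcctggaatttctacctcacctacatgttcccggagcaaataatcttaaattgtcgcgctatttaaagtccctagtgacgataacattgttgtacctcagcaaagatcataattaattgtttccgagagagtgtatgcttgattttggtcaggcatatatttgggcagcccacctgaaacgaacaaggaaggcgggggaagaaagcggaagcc
KMT2D: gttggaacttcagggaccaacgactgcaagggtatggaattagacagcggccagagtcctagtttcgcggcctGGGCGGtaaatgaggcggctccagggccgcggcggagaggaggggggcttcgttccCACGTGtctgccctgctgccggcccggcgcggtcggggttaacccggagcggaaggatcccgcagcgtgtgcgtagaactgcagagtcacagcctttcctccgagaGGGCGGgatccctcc

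A GC box was found in 6 of the 7 windows, those of WDR5, SETD1A, KMT2A, KMT2B, KMT2C and KMT2D, against 45.0% of 35116 windows of all genes. The E-box was found in KMT2D alone among the 7 (7.26% of all windows) and the NRF1 motif in WDR5 alone (5.78%). The NF-κB consensus was found in KMT2B alone (11.3% of all windows), and the AP-1 motif TGANTCA in none of the 7 (7.71%). The GC content of the windows ranged from 49.3% for RBBP5 to 88.7% for KMT2C, with a median of 58.7% over all windows. These matches describe letters in short windows and say nothing of binding. Sites outside the windows, or that differ from the pattern read, were not counted. The paper describes putative NF-κB motifs in regulatory regions of SETD1A, WDR5 and RBBP5. It also reports NF-κB p65 on these regions by chromatin immunoprecipitation, and lower mRNA of these genes after NF-κB silencing. For WDR5 and RBBP5, a primer of that assay lies within the stretch given above, so the assayed region reaches into the window. The windows need not cover the motifs themselves.

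WDR5 was the only one of the 10 genes that was lower with DOX, whereas SETD1B, SETD1A and DPY30 were higher. The calls of SETD1A and DPY30 were lost with Bonferroni adjustment and in a test against a change between 80.0% and 125% of vehicle (adjusted p = 1 in each, from the deposited DESeq2 estimates), and those of WDR5 and SETD1B were not. The other 6 genes did not pass an adjusted p of 0.05 from DESeq2's Wald test. Across the 15954 genes with an adjusted p-value, 22.5% were called lower and 24.3% higher at this threshold, or 46.8% in either direction. The 3 higher genes are 33.3% of the 9 members other than WDR5, which is read against the 24.3% of all genes. In bulk RNA, fewer cells of a type and less RNA per cell cannot be told apart.

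**Figure D1:**
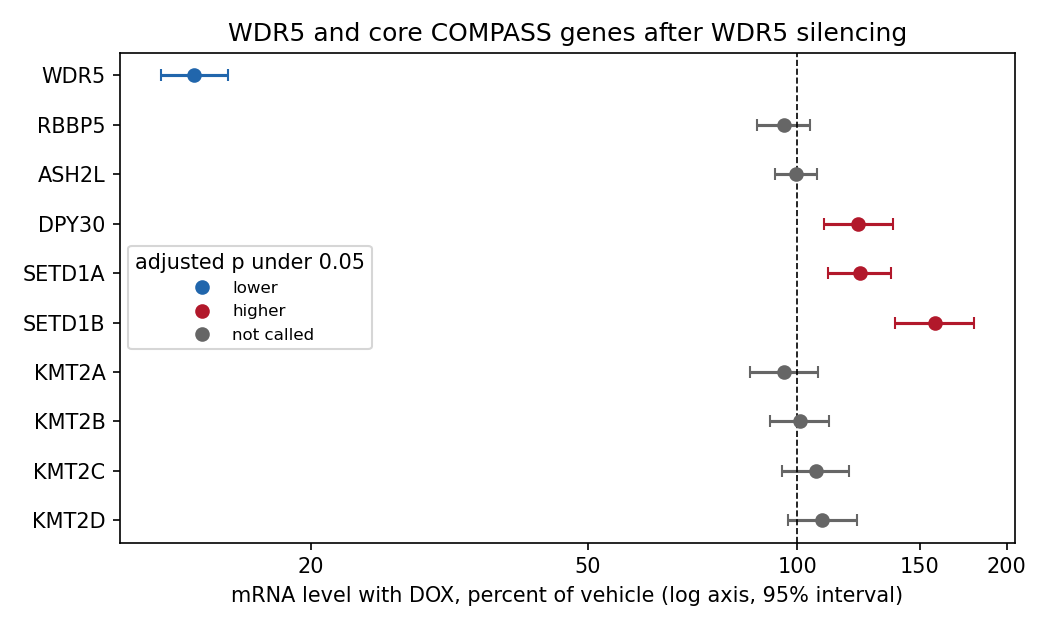
mRNA level of each gene with DOX as a percent of vehicle on a log axis. Points are estimates over 3 cultures per group and bars are 95% intervals. WDR5 sits at 13.6%, SETD1B, SETD1A and DPY30 lie wholly to the right of 100%, and the intervals of the other 6 genes cross 100%.

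WDR5 is the WD-repeat scaffold that holds the SET domain protein and RBBP5 together, and GENCODE 44 places its gene at 134135365 to 134159968 of chromosome 9 (GRCh38, as for all genes here). As the target of the hairpin it served as the check of the labels. Its mean normalized count was 1143, which with its fold change corresponds to a fitted count of 2013 with vehicle and 273 with DOX. The remaining level was 13.6% of vehicle (95% interval 12.2% to 15.2%), a 7.36-fold decrease. By the size of the Wald statistic WDR5 ranked 3 among all genes, and 8 of the 13548 genes with a mean of 10 or more had a lower log2 fold change. The standard error of WDR5, 0.08 on the log2 scale, was at the upper end of those of the 200 genes nearest to it in mean count, whose median was 0.07.

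WDR5B, an intronless paralogue of WDR5, had a mean normalized count of 224. It stood at 90.1% of vehicle (95% interval 74.9% to 108%) with DOX, and its adjusted p was 0.395 (DESeq2).

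Among the core partners, DPY30 was higher with DOX and RBBP5 and ASH2L were not called. RBBP5, the WD-repeat subunit that bridges WDR5 and ASH2L, lies on chromosome 1 from 205086142 to 205122015. Its fitted counts were 1810 with vehicle and 1729 with DOX, or 95.5% of vehicle (87.5% to 104%, adjusted p = 0.430 by DESeq2). ASH2L, which docks DPY30 and stimulates the methyltransferase, lies on chromosome 8 from 38105493 to 38144076. It had the highest mean normalized count of the 10 genes, 3031, and the smallest standard error, 0.05 on the log2 scale. With DOX it stood at 99.4% (92.8% to 107%, adjusted p = 0.920 by DESeq2).

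DPY30 is the smallest subunit, a dimer that binds ASH2L, and its gene lies on chromosome 2 from 31867809 to 32039805. Its fitted counts rose from 541 to 662. This corresponds to 122% of vehicle (109% to 137%), with a log2 fold change of 0.29, a standard error of 0.08 and an adjusted p of 0.00182 (DESeq2). The annotated DPY30 gene runs through MEMO1 on the same strand, and MEMO1, which was named after its value was seen, stood at 123% of vehicle (109% to 139%, adjusted p = 0.00242 by DESeq2). How the authors assigned reads in a shared exon is not given in the sources used here, and whether the 2 estimates share reads was not tested.

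The difference between core partners was larger than its error for DPY30 alone. The log2 fold change of DPY30 exceeded that of RBBP5 by 0.36 (95% interval 0.15 to 0.56) and that of ASH2L by 0.30 (0.10 to 0.49). ASH2L and RBBP5 differed by 0.06, with an interval from -0.10 to 0.22 that includes 0. These intervals, and those of the paralogue pairs, take the errors of 2 genes as uncorrelated.

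Of the 6 methyltransferases, the 2 SETD1 genes were higher with DOX and none of the 4 KMT2 genes was called. Whether the SETD1 genes changed more than the KMT2 genes was not tested. SETD1B, on chromosome 12 from 121804009 to 121832656, had the largest change of the 9 genes other than WDR5. Its fitted counts were 488 with vehicle and 770.0 with DOX, which is 158% of vehicle (138% to 179.6%). The log2 fold change was 0.66 with a standard error of 0.10 and an adjusted p of 6.8e-11 (DESeq2), and 94.1% of the 13548 genes lay below it. SETD1A, on chromosome 16 from 30957294 to 30984664, had fitted counts of 1044 and 1284. With DOX it rose to 123% (111% to 136%, adjusted p = 0.000345 by DESeq2).

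The KMT2 genes encode the largest proteins of the group. KMT2A, the gene rearranged in mixed-lineage leukemia, lies on chromosome 11 from 118436456 to 118526832, and its fitted counts were 2899 with vehicle and 2771 with DOX. It stood at 95.6% of vehicle (85.4% to 107%). KMT2B, its paralogue on chromosome 19 from 35717973 to 35738880, stood at 101% (91.4% to 111%), with fitted counts of 1116 and 1125. KMT2C, on chromosome 7 from 152134922 to 152436644, stood at 106% (95.1% to 119%), with fitted counts of 1731 and 1840. KMT2D, on chromosome 12 from 49018975 to 49060794, stood at 109% (96.9% to 122%), with fitted counts of 1641 and 1784. The adjusted p-values of KMT2A, KMT2B, KMT2C and KMT2D were 0.562, 0.916, 0.404 and 0.250 (DESeq2). GENCODE 44 annotates partial copies of KMT2C and of ASH2L, from which reads may not be told apart with certainty.

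**Figure D2:**
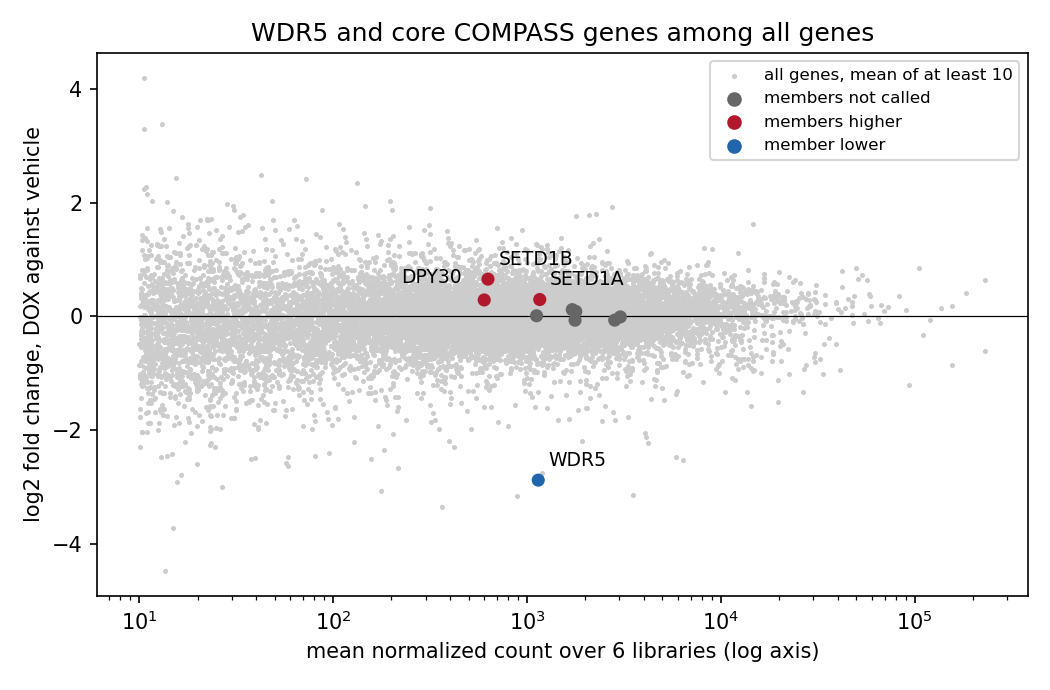
Log2 fold change (DOX over vehicle) for each gene against its mean normalized count over 6 libraries (log axis). Small grey points are the 13548 genes with a mean of 10 or more. WDR5 lies at the lower edge of the cloud at -2.88, SETD1B in its upper part at 0.66, and the 6 genes that were not called close to 0.

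The paralogue pairs were compared directly. SETD1B rose more than SETD1A, by 0.36 on the log2 scale (95% interval 0.12 to 0.60), so that the ratio of SETD1B to SETD1A mRNA increased to 128% of its vehicle value (109% to 151%). KMT2B minus KMT2A was 0.08 (-0.14 to 0.29), and KMT2D minus KMT2C was 0.03 (-0.20 to 0.26). Both intervals include 0. Of the 6 pairs compared, 3 had an interval that excludes 0.

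**Figure D3:**
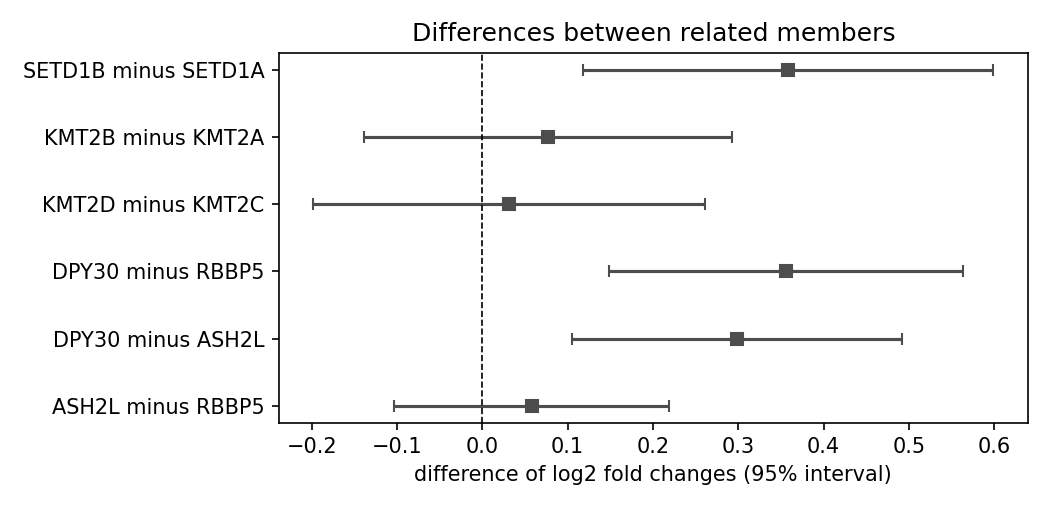
Difference between the log2 fold changes of 2 genes, with 95% intervals, for the 3 paralogue pairs of methyltransferases and the 3 pairs among RBBP5, ASH2L and DPY30. The intervals of SETD1B minus SETD1A, DPY30 minus RBBP5 and DPY30 minus ASH2L lie above 0 and the other 3 cross it.

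The precision of the genes that were not called was also determined. The 95% intervals of all 6 lay between 80.0% and 125% of vehicle. At the standard error of ASH2L, an estimate of 108% or more, or of 92.3% or less, of vehicle would have been called. For KMT2D these limits were 114% and 87.6%. The standard errors of KMT2A, KMT2C and KMT2D were larger than those of 98.5%, 97.5% and 97.5% of the 200 genes nearest to each in mean count, whereas ASH2L had a smaller error than all 200 of its neighbors. For KMT2A the standard error was 0.08, where the median of these neighbors was 0.06. Smaller estimates for these genes would thus not have been called. The limits apply to the estimate, and a true change of that size could still be missed.

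The 10 mRNAs differ widely in length, and levels between genes were therefore compared per kilobase of the canonical GENCODE transcript. The transcripts range from 688 bases for DPY30 to 20635 bases for KMT2D, with coding lengths of 297 and 16611 bases. With vehicle, the fitted normalized count per kb was 1042 for ASH2L, 787 for DPY30, 637 for WDR5 and 415 for RBBP5. The methyltransferases stood below all 4 core subunits, at 175 for KMT2A, 174 for SETD1A, 132 for KMT2B, 103 for KMT2C, 79.5 for KMT2D and 57.1 for SETD1B. These levels carry no replicate error of their own, so the order of close neighbors such as KMT2A and SETD1A is not settled.

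With DOX, the fitted level of WDR5 fell to 86.6 per kb, beside 89.98 for SETD1B, 86.4 for KMT2D and 109 for KMT2C. The ratio of WDR5 to ASH2L went from 0.61 to 0.08 on this scale, whereas that of RBBP5 to ASH2L was 0.40 with vehicle and 0.38 with DOX. The ratio of DPY30 to ASH2L was 0.76 with vehicle and 0.93 with DOX. Summed over the 6 methyltransferases, the level was 720 per kb with vehicle and 799 with DOX. SETD1A and SETD1B together made up 32.1% of that sum with vehicle and 38.1% with DOX. Reads of incomplete or alternative transcripts were not separated, and a per kb level depends on which transcript is taken as the length.

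**Figure D4:**
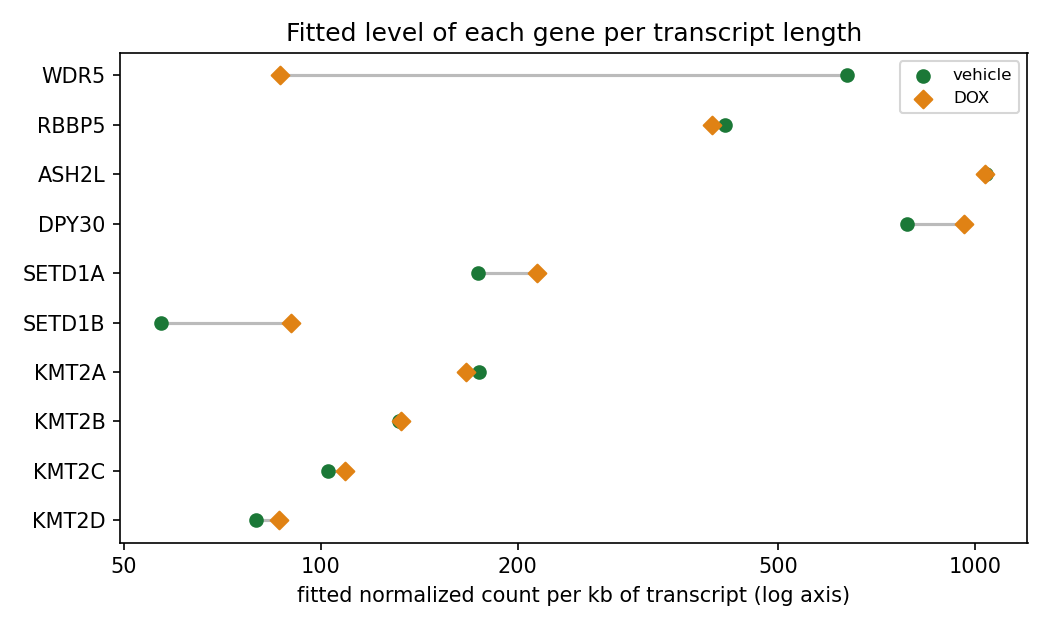
Fitted normalized count per kb of canonical transcript (log axis) for each gene with vehicle (circles) and DOX (diamonds). The core subunits lie above the methyltransferases with vehicle, and with DOX WDR5 lies at 86.6, among the methyltransferases.

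Genes that start head to head with a member, within 1000 bases on the other strand, were examined next, and 2 of them are given. The noncoding RNA LINC01089, head to head with SETD1B, stood at 107% of vehicle (68.0% to 167%) on a mean normalized count of 34.7, with an adjusted p of 0.852 (DESeq2). It was not called, and its interval is wide. The pseudogene FABP5P3, head to head with KMT2C, has a mean normalized count of 2.70 and carries no information.

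The other genes of the H3K4 methylation pathway were described in lists for comparison. Some accessory subunits help to direct a COMPASS complex to its sites. Over 12 genes of accessory subunits, the median log2 fold change was -0.28. At an adjusted p of 0.05, 7 were lower with DOX and 2 were higher. These are 58.3% and 16.7% of the list, beside 22.5% and 24.3% of all genes tested. The median over the 9 members other than WDR5 was 0.09, and that over the 13548 genes was 0.003. The largest decreases were those of BOD1 (69.4% of vehicle, 64.5% to 74.6%), whose relative BOD1L1 is linked to SETD1A, and of NCOA6 (72.6%, 66.9% to 78.8%), a subunit of the KMT2C and KMT2D complexes. The increases were those of WDR82 (122%, 114% to 130%), which within COMPASS belongs to the SETD1 complexes, and of HCFC1 (113%, 104% to 124%), shared by SETD1, KMT2A and KMT2B complexes. CXXC1, which brings SETD1 complexes to CpG islands, stood at 99.4% (87.5% to 113%), and MEN1, which anchors KMT2A and KMT2B, at 109% (97.3% to 122%).

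H3K4 demethylases remove the mark. Of 5 genes, KDM5C was lower (65.0% of vehicle, 60.0% to 70.4%), and KDM1A (127%, 119% to 136%) and KDM5A (112%, 102% to 122%) were higher. KDM5B stood at 103% (96.1% to 111%) and KDM1B at 106% (95.5% to 117%). These 1 lower and 2 higher genes of 5 stand beside 22.5% lower and 24.3% higher of all genes tested, and the median log2 fold change of the list was 0.08.

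Ubiquitin on histone H2B, placed by RNF20 and RNF40 with the PAF1 complex, stimulates COMPASS. Of 11 genes of this step, 3 were lower and 4 were higher (27.3% and 36.4%, beside 22.5% and 24.3% of all genes tested), with a median log2 fold change of 0.08. LEO1 (133%, 119% to 148%) and CTR9 (128%, 118% to 139%), both PAF1 complex subunits, had the largest increases. WAC, a partner of RNF20 and RNF40, stood at 79.0% (74.0% to 84.2%) and CDC73, a further PAF1 complex subunit, at 87.8% (80.8% to 95.4%). RNF20 itself rose to 111% (102% to 120%).

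Of 13 genes whose proteins read H3K4 methylation, 5 were lower and 2 were higher (38.5% and 15.4%, beside 22.5% and 24.3% of all genes tested), with a median of -0.14. ING3, a subunit of the NuA4 acetyltransferase complex, had the largest decrease, to 43.6% of vehicle (37.5% to 50.7%), followed by the chromatin remodeler CHD1 (71.2%, 65.4% to 77.4%). BPTF (119%, 107% to 133%), the reader of the NURF remodeler, and SPIN1 (116%, 107% to 124%) were higher.

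WDR5 is also a subunit of the NSL and ATAC acetyltransferase complexes, for which 14 other genes were listed. Of these, 5 were lower and 4 were higher (35.7% and 28.6%, beside 22.5% and 24.3% of all genes tested), with a median of -0.11. KAT2A, an acetyltransferase of ATAC, rose to 171% of vehicle (151% to 192%) and MCRS1, an NSL subunit, to 130% (117% to 144%). KAT14, the other acetyltransferase of ATAC, stood at 98.9% (87.4% to 112%) and was not called. The ATAC subunits TADA3 and DR1 fell to 78.8% (72.6% to 85.5%) and 79.7% (73.3% to 86.5%).

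Histone methyltransferases of other residues and families gave 10 lower and 5 higher genes of 21 (47.6% and 23.8%, beside 22.5% and 24.3% of all genes tested), with a median of -0.11. SETDB2 (68.3%, 51.8% to 89.95%) and EZH1 (75.7%, 66.2% to 86.5%) had the largest decreases. The largest increases were those of EHMT2 (141%, 130% to 154%) and SUV39H1 (122%, 107% to 139%). Of the 6 H3K4 methyltransferases of COMPASS, 0 were called lower and 2 (33.3%) were called higher, with a median of 0.10, and counts this small lie near those shares of all genes. No test of the difference between the lists was made. With Bonferroni adjustment the calls fell from 15 to 2 for the other histone methyltransferases and from 9 to 5 for the accessory subunits.

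**Figure D5:**
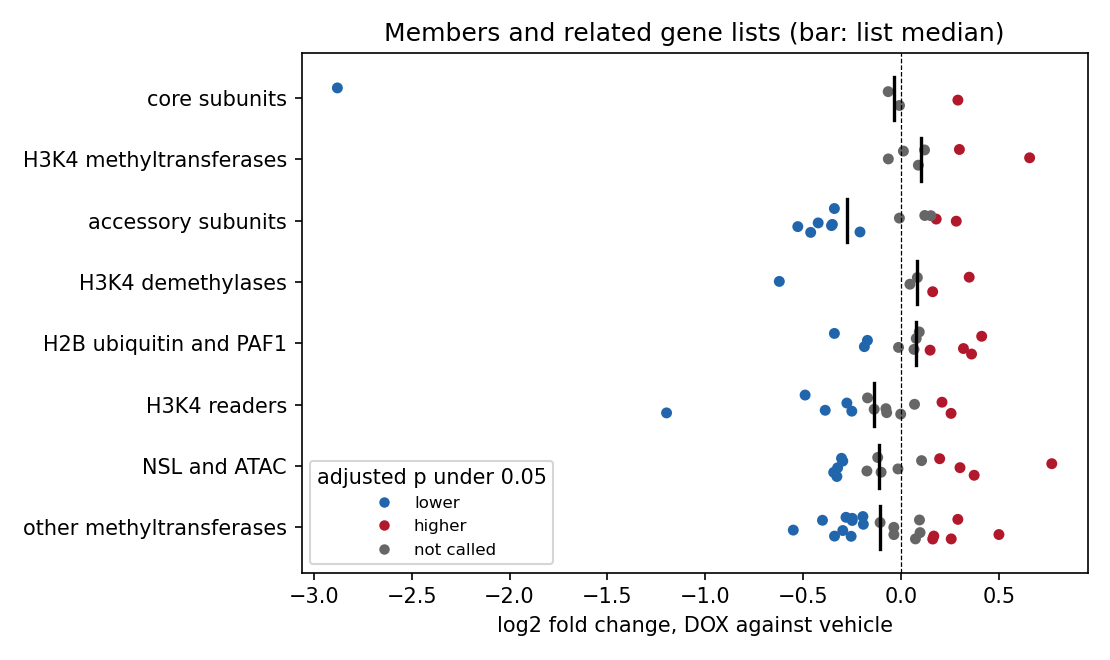
Log2 fold change (DOX over vehicle) for each gene of 8 lists, colored by the call at an adjusted p of 0.05, with the list median as a bar. WDR5 is the point at -2.88, the methyltransferases of COMPASS have a median of 0.10, and the accessory subunits a median of -0.28.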

How the data were processed

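RNA was isolated from triplicate cultures, and stranded poly(A) libraries were aligned by the authors to GRCh38 with STAR, and their gene counts were normalized and compared with DESeq2. The gene counter is not given in the sources used here. The authors deposited a mean normalized count per gene, a signal value over all 6 libraries. They also deposited, on the log2 scale, the fold change (DOX over vehicle) with a standard error, the Wald statistic, a score, and the p-value with its Benjamini-Hochberg adjusted p-value. The columns of that comparison are the only measure of its error and were used as deposited, after the statistic and the adjustment were recomputed and checked. The adjusted p-value is empty for 3838 genes.

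An interval (95%) reaches 1.96 standard errors to either side of an estimate. The fitted count of each group was computed from the mean normalized count and the fold change, with groups of equal size. Transcript lengths and positions came from GENCODE 44, to which 17729 symbols matched directly, 866 through a RefSeq synonym and 1197 not at all. The named genes were the 10 members, WDR5B, head-to-head neighbors (1 of which is not reported here), and the largest called changes of each list, while MEMO1, KAT14, CXXC1, MEN1, KDM5B, KDM1B and RNF20 were named after their values were seen. The members and lists were chosen with earlier results of these data known. Data were simulated with the standard errors of the 19792 genes of this comparison. Changes were planted only in genes with a mean normalized count of 100 or more. Of these, 100 of 100 log2 changes of size 1 and 88 of 100 of size 0.5 were recovered. Of the simulated intervals, 95.1% covered the true value. Estimates were drawn with the same standard errors that set the intervals, so this coverage follows by construction. It does not check the deposited errors. Computation used pandas 2.3.3, matplotlib 3.10.9, scipy 1.17.1 and numpy 2.4.6 under Python 3.11.15.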

Additional observations from a re-analysis of the deposited data

How the results depend on the processing

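WDR5 and SETD1B kept their direction and call under all 9 alternatives, with log2 fold changes from -2.91 to -2.78 and from 0.56 to 0.66. SETD1A (0.30) and DPY30 (0.29) were no longer called with Bonferroni adjustment or when tested against a change of at most 125% of vehicle or the inverse of it. The adjusted p of both genes was 1 in each case, and 1 member was then called higher in place of 3. Over all genes, 3594 lower and 3871 higher calls became 1622 and 1839 with Bonferroni adjustment, and 1169 and 999 with that wider null, since both ask for more evidence by construction. Among genes that were not called, KMT2B turned to -0.031 when centred on 200 genes of like expression. After correction for GC content and transcript length, which explained 1.51% of the variance of the log2 fold change, KMT2B turned to -0.083, KMT2D to -0.080 and ASH2L to 0.022. The differences between pairs kept their call with an error correlation of 0.3 or -0.3. For the related lists, 13 of 63 counts of called genes moved by over 1.5 times, all downward. With Bonferroni adjustment and with the wider null, respectively, the count went from 15 to 2 and 1 for other histone methyltransferases, from 9 to 5 and 1 for accessory subunits, from 9 to 5 and 1 for NSL and ATAC, from 7 to 4 and 0 for H2B ubiquitin and PAF1, from 7 to 3 and 2 for readers, and from 3 to 2 and 1 for demethylases. With Benjamini-Yekutieli adjustment it was 9 for other histone methyltransferases and 4 for H2B ubiquitin and PAF1. No paired analysis was possible because the table holds no column of a single library. Leaving out each culture, TMM or other size factors and a count test were not run for the same reason. The standard errors set the smallest estimate that could be called.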
